A study of Mus musculus with 16 samples.

Results

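MHC class II molecules carry peptides to the cell surface, where CD4+ T cells read them. The genes described here are H2-Aa, H2-Ab1, H2-Eb1, H2-DMa, H2-DMb1, Cd74 and Ciita, chosen by name as the chains of the class II molecules, their loading factors and their master regulator. Of these 7 genes, 6 have a row in the kidney expression table, which holds 13430 genes. The expression of H2-Eb1 was not analysed here. The tissue was a horizontal slice, 3 mm thick, from the mid-kidney. It came from 16 mice, all female C57BL/6 at 2 to 3 months of age, with 1 library per mouse. The mice were wild type or IRR(-/-), that is, without Insrr, which encodes a receptor tyrosine kinase related to the insulin receptor that senses alkaline pH outside the cell. The 4 groups of 4 mice were wild type on water, wild type on sodium bicarbonate, knockout on water and knockout on sodium bicarbonate. The bicarbonate groups drank 250 mM NaHCO3 at pH 8.5 for 7 days, and every mouse was fasted for 12 h before sampling with its drink left in place. The labels name no sequencing batch, litter or date, and do not say how the knockout was made or whether the wild-type mice were littermates, so any of these that followed genotype cannot be told apart from it. Levels are RPKM, reads scaled to transcript length and to library size, so levels of different genes are compared per length.

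A class II molecule is a pair of an alpha and a beta chain, and in C57BL/6 mice H2-Aa and H2-Ab1 encode the alpha and beta chain of the I-A molecule. Cd74 encodes the invariant chain, which joins new class II pairs, blocks their peptide groove and directs them to endosomes. There cathepsins trim the invariant chain, and the H2-DM heterodimer, made of the products of H2-DMa and H2-DMb1, exchanges its last fragment for a peptide. Ciita encodes the co-activator that turns these genes on together through a shared promoter module bound by RFX, CREB and NF-Y proteins, and interferon gamma induces Ciita in many cell types. In kidney, class II genes are known mainly from resident macrophages and dendritic cells, and injured or inflamed tubule cells can express them too. A slice holds all of these, so in such bulk tissue a change in cell number and a change in RNA per cell cannot be told apart.

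In the knockout kidneys on water, H2-Ab1 was 2.39-fold higher than in wild type and Cd74 was 1.5-fold higher, while H2-Aa, the partner chain of H2-Ab1, was at 0.941-fold and did not pass the test. On bicarbonate H2-Ab1 was again higher in the knockout, at 2.02-fold, and Cd74 was 1.27-fold higher without passing the test. No class II gene passed the test for bicarbonate against water in either genotype.

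The libraries differed by genotype as a whole. The median RPKM lay between 8.44 and 8.92 in all 16 libraries, but the summed RPKM was 1358770 to 1602930 in the 8 wild-type libraries and 2415150 to 2927110 in the 8 knockout libraries. Mitochondrially encoded genes made up 69.6% to 74.2% of that sum in wild type and 82.6% to 84.9% in the knockout. Insrr itself was at 4.8 to 6.7 RPKM in wild type on water, 4.2 to 6.5 in wild type on bicarbonate, 3.3 to 4.1 in the knockout on water and 3.3 to 3.7 in the knockout on bicarbonate. It was lower in the libraries labelled knockout on both drinks but not absent from them. The labels do not say which part of the gene was deleted, so reads from a remaining part could not be set aside. The share of genes that differed between genotypes was large, and every count of class II genes below is given beside it.

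The class II genes spanned a wide range of levels. Over all 16 libraries Cd74 averaged 84.8 RPKM, H2-Aa 46.0 RPKM and H2-Ab1 37.6 RPKM, which placed them at the 93.1, 86.7 and 83.9 percentile of the genes in the table. H2-DMb1 averaged 7.88 RPKM and H2-DMa 1.42 RPKM, at the 47.0 and 15.7 percentile. Ciita, the regulator, averaged 0.578 RPKM, at the 6.6 percentile. All 6 passed the filter for testing, 0.5 RPKM or more in 4 or more libraries, and 4 of the 6 were at or above 0.5 RPKM in all 16 libraries. H2-DMa and Ciita were not, so their values may rest on few reads. How many is unknown, because RPKM values do not keep the read depth of the libraries.

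Their positions were taken from GENCODE M21 on GRCm38. On chromosome 17 H2-DMa spans 34119541 to 34139101 and H2-DMb1 spans 34153072 to 34160230, both on the plus strand. H2-Ab1 spans 34257689 to 34269419 on the plus strand, and H2-Aa lies 13324 bases further on, from 34282744 to 34287823 on the minus strand. The chains that pair are therefore close neighbours. Cd74 and Ciita lie on other chromosomes. The H2-DMa gene model overlaps Brd2 on the opposite strand. No source used here says whether the counting used strand, so reads in that overlap could have gone to either gene. H2-DMb1 has a near copy, H2-DMb2, which holds 31.37% of its 31-base transcript words, and its level is uncertain to that extent. For H2-Aa, H2-Ab1, H2-DMa, Cd74 and Ciita the share of such words found in another gene was at most 1.41%. The words were compared in transcript direction only, so the share does not cover a gene on the opposite strand, such as Brd2 for H2-DMa.

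Promoter letters were read because these genes are known to share a module, the X1 box followed by the Y box. RefSeq windows on GRCm38.p6, from 250 bases before to 50 bases after a gene start, were found for H2-DMa, H2-DMb1, H2-Aa and H2-Eb1 and searched on both strands for the letters of both boxes. The X1 box was searched as AG, 2 free bases, AC, 1 free base, G, 1 free base and TG, and the Y box, an inverted CCAAT box, as ATTGG. For the pair, Y had to begin after the end of X1, so the matches do not overlap. Stretches of H2-DMb1, the member with values that held both boxes, and of H2-Aa, the chain set against H2-Ab1 below, are shown 5′ to 3′ in the direction of the gene, with the matched letters in capitals.
H2-DMb1, X1 box, chr17:34153089-34153113, plus strand: tttacctAGTAACTGATGatgctag
H2-DMb1, Y box, chr17:34153120-34153144, plus strand: tcactcagtgATTGGtctgacctgc
H2-Aa, Y box, chr17:34287852-34287931, minus strand: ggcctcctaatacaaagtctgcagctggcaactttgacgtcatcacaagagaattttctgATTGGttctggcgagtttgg

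In H2-DMb1 the X1 letters began 95 bases before the RefSeq start and the Y letters 61 bases before it, with 23 bases between them. GENCODE places the start of H2-DMb1 further upstream, so there these letters fall in the first exon. X1 followed by Y on the same strand within 40 bases was found in 43 of 32851 windows, or 0.131%, and H2-Eb1 was another of them, with 22 bases between its boxes. H2-Aa held Y letters, 48 bases before its start, and no match to the X1 letters as searched. Other spellings of the X1 box were not searched, so a missing match does not show that the box is absent. Of the 2 windows of H2-DMa, 1 held Y letters 198 bases before the start and the other held neither motif. Alone, X1 letters were found in 4.61% of windows and Y letters in 37.4%. A match is a description of letters, and H2-DMb1, which has both, is a gene whose level did not pass any test below, while H2-Ab1, Cd74 and Ciita are named without a window.

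H2-Ab1, the I-A beta chain, showed the widest separation between genotypes. On water it was at 25.7, 27.5, 22.2 and 16.4 RPKM in the 4 wild-type libraries, in the order of their replicate numbers, and at 56.3, 41.95, 55.6 and 64.5 RPKM in the knockout. On bicarbonate it was at 23.6, 22.8, 26.8 and 22.6 RPKM in wild type and at 40.1, 56.9, 47.3 and 50.95 RPKM in the knockout. The lowest of the 8 knockout libraries was above the highest of the 8 wild-type libraries. The group means on water were 22.96 ± 4.92 RPKM in wild type and 54.6 ± 9.33 RPKM in the knockout, and on bicarbonate 23.96 ± 1.94 and 48.8 ± 7.04 RPKM, with SD over 4 libraries. Knockout minus wild type was 1.26 ± 0.16 (SE) on the log2(RPKM + 0.1) scale on water, with an adjusted p of 6.63e-05 in limma, or 2.39-fold with a 95% interval of 1.89 to 3.02. The bicarbonate difference was 1.02 ± 0.16, with an adjusted p of 0.000507 in limma, or 2.02-fold with a 95% interval of 1.60 to 2.56.

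H2-Aa, the alpha chain that pairs with the product of H2-Ab1, showed no such separation. On water it was at 57.3, 58.7, 49.5 and 33.8 RPKM in wild type and at 46.9, 44.7, 46.3 and 45.5 RPKM in the knockout. With bicarbonate H2-Aa was at 51.6, 43.3, 40.2 and 44.9 RPKM in wild type and at 41.6, 42.4, 41.7 and 47.0 RPKM in the knockout. The genotypes overlapped on both drinks, and wild type on water was the most spread, with a mean of 49.8 ± 11.4 RPKM against 45.9 ± 0.938 RPKM in knockouts (SD, n = 4 each). The log2 difference, knockout minus wild type, was -0.09 on water, with a 95% interval of -0.38 to 0.20 and an adjusted p of 0.696 in limma. Its bicarbonate value was -0.05, with a 95% interval of -0.34 to 0.23 and an adjusted p of 0.826 in limma. Both intervals end far below the log2 differences of H2-Ab1. The water value rested on 1 library: without wild type on water replicate 4, the lowest for H2-Aa, the log2 difference was -0.26 and passed the test, with an adjusted p of 0.0448 in limma.

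Cd74, the invariant chain gene and the most abundant of the 6, was higher in the knockout by a smaller factor. It lies on chromosome 18, from 60803848 to 60812652 on the plus strand. On water it was at 75.3, 82.7, 68.3 and 49.7 RPKM in wild type and at 114, 93.4, 98.2 and 103 RPKM in the knockout. With bicarbonate Cd74 was at 84.9, 72.6, 71.4 and 68.0 RPKM in wild type and at 89.7, 98.7, 89.9 and 97.1 RPKM in the knockout. All 8 knockout libraries were above all 8 wild-type libraries. On water the log2 difference was 0.59 ± 0.13 (SE), with an adjusted p of 0.00371 in limma, or 1.5-fold with a 95% interval of 1.25 to 1.81. The bicarbonate difference was 0.34 ± 0.13, or 1.27-fold with a 95% interval of 1.05 to 1.53, and with an adjusted p of 0.0716 in limma it did not pass, although with only the 2 bicarbonate groups in the fit it passed at an adjusted p of 0.0231 in limma. That the genotype difference of Cd74 was smaller on bicarbonate than on water was not shown, since the test of that difference gave -0.25 on the log2 scale with a 95% interval of -0.62 to 0.13.

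**Figure D1:**
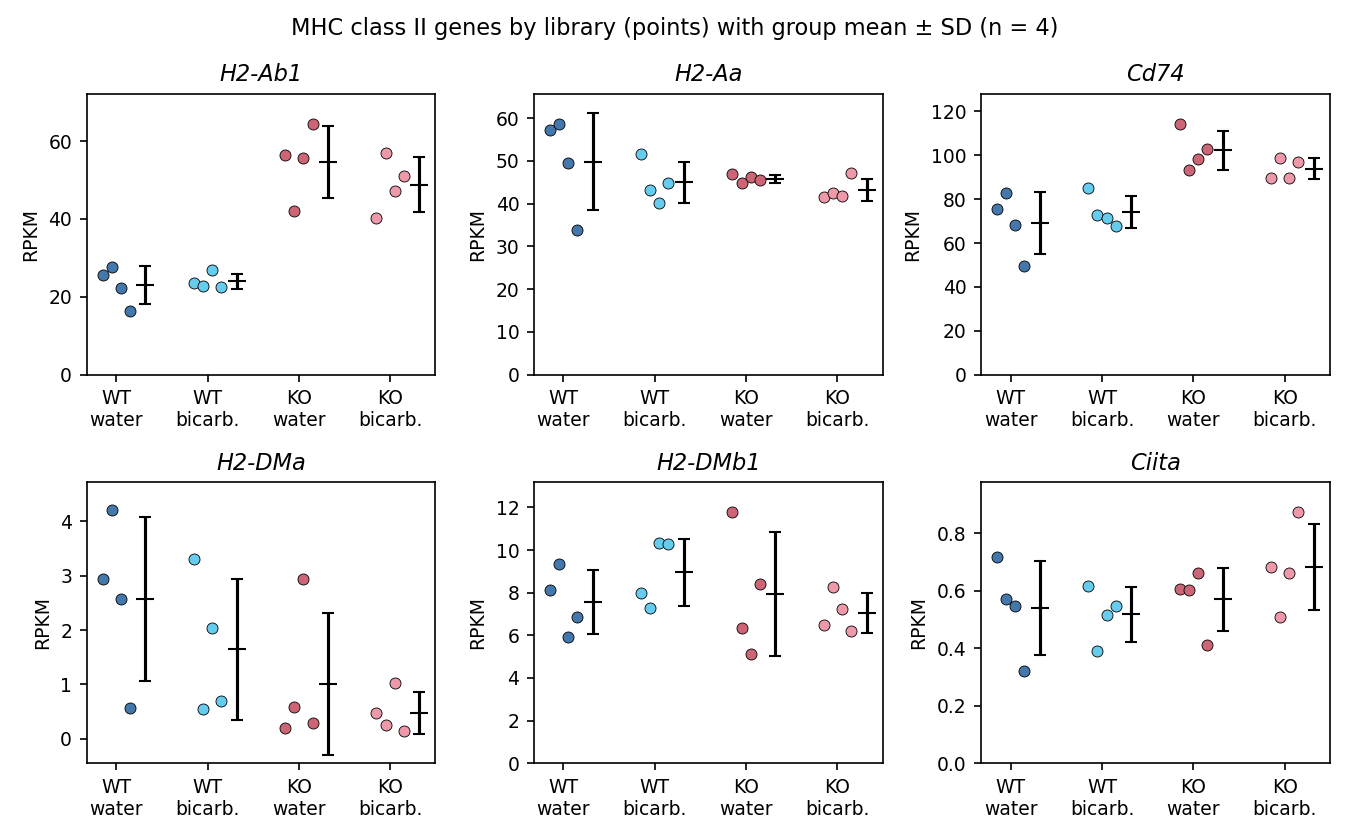
RPKM of the 6 class II genes in each of 16 libraries (points, n = 4 per group), with the group mean ± SD as a bar beside them; WT is wild type, KO is the IRR knockout and bicarb. is 250 mM NaHCO3, and each panel has its own linear axis. H2-Ab1 and Cd74 are higher in all 8 knockout libraries than in all 8 wild-type libraries, and H2-Aa, H2-DMa, H2-DMb1 and Ciita overlap between genotypes.

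Within a library, the beta and alpha chain RNA stood in different proportions in the 2 genotypes. The ratio of H2-Ab1 to H2-Aa RPKM was 0.449 to 0.484 in wild type on water, 0.457 to 0.667 in wild type on bicarbonate, 0.938 to 1.42 in the knockout on water and 0.963 to 1.34 in the knockout on bicarbonate. In wild type on water the ratio varied little, with a mean of 0.463 ± 0.0172 (SD, n = 4), although H2-Aa itself ranged from 33.8 to 58.7 RPKM there. The ratio of Cd74 to H2-Aa was 1.31 to 1.47, 1.51 to 1.78, 2.09 to 2.44 and 2.06 to 2.32 in the same order of groups. Neither ratio overlapped between the genotypes. These ratios combine values already described and are given without a test, and they show unequal levels of the pair, not which of them changed.

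**Figure D2:**
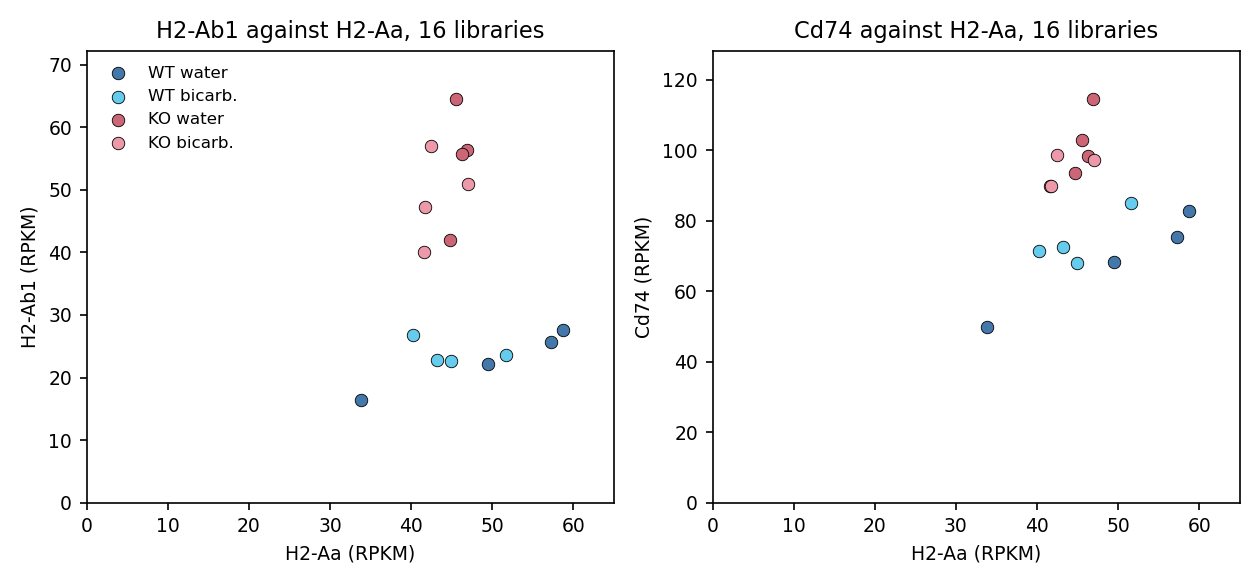
H2-Ab1 (left) and Cd74 (right) against H2-Aa, in RPKM on linear axes, with 1 point per library in 16 libraries coloured by group. At like levels of H2-Aa the knockout libraries lie above the wild-type libraries, and the wild-type library with the lowest H2-Aa, at 33.8 RPKM, also has the lowest H2-Ab1 and Cd74.

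The H2-DM genes, which load peptide, did not pass the test. H2-DMa was at 2.95, 4.22, 2.57 and 0.559 RPKM in wild type on water and at 0.201, 0.586, 2.94 and 0.289 RPKM in the knockout on water. With bicarbonate H2-DMa was at 3.31, 0.543, 2.04 and 0.688 RPKM in wild type and at 0.471, 0.259, 1.03 and 0.147 RPKM in the knockout. It was scattered within every group, and the genotypes overlapped on both drinks. Its log2 difference was -1.64 on water, with a 95% interval of -3.32 to 0.04 and an adjusted p of 0.156 in limma, and -1.50 on bicarbonate, with an interval of -3.18 to 0.18 and an adjusted p of 0.206 in limma. These intervals hold both no change and a change larger than that of H2-Ab1 in the other direction. The water value depended on knockout on water replicate 3, the 1 library of that group above 0.586 RPKM, and without it the log2 difference was -2.35 with an adjusted p of 0.0352 in limma. Brd2, which overlaps the H2-DMa gene model on the other strand, was higher in the knockout by 0.58 on the log2 scale on water, and whether reads passed between the 2 genes was not tested.

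H2-DMb1, the beta chain of H2-DM, had means of 7.57 ± 1.49 RPKM in wild type on water, 8.97 ± 1.57 RPKM in wild type on bicarbonate, 7.93 ± 2.90 RPKM in the knockout on water and 7.05 ± 0.929 RPKM in bicarbonate-fed knockouts (SD, n = 4 each). Its log2 difference between genotypes was 0.02 on water, with a 95% interval of -0.45 to 0.48, and -0.34 on bicarbonate, with an interval of -0.80 to 0.13, and the adjusted p in limma was 0.967 and 0.314. Summed with its near copy H2-DMb2, which averaged 0.675 RPKM and was listed at 0 in some libraries, the mean was 8.18 ± 1.23, 10.2 ± 1.33, 8.25 ± 3.16 and 7.59 ± 1.51 RPKM in the same order of groups (SD, n = 4 each). The sum thus showed the same overlap of groups as H2-DMb1 alone.

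Ciita, the regulator of the whole set, lies on chromosome 16 from 10480059 to 10528418 on the plus strand, and its level was near the lower limit of what was tested. Its libraries lay between 0.322 and 0.718 RPKM in wild type on water, 0.390 and 0.618 in wild type on bicarbonate, 0.412 and 0.661 in the knockout on water and 0.510 and 0.874 in the knockout on bicarbonate. The groups overlapped in every comparison. Its log2 difference between genotypes was 0.09 on water, with a 95% interval of -0.43 to 0.61 and an adjusted p of 0.838 in limma, and 0.33 on bicarbonate, with an interval of -0.19 to 0.86 and an adjusted p of 0.379 in limma. At this level a fold as large as that of Cd74 lay within both intervals, so a difference of that size was not detectable here.

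Over the set, 2 of 6 members were higher in the knockout on water and none was lower, beside 21.9% of all 12943 genes tested that passed in either direction, 10.1% as higher and 11.8% as lower. On bicarbonate 1 of 6 was higher and none lower, beside 18.4% in either direction, 9.03% higher and 9.36% lower. Without overlap between the genotypes and higher in the knockout were 2 of 6 members on each drink, beside 10.8% of all genes on water and 11% on bicarbonate. None was lower without overlap, beside 13% of all genes on water and 11.8% on bicarbonate. The median log2 difference of the 6 members was 0.05 on water and 0.14 on bicarbonate, beside -0.05 and -0.02 for all genes. With so few members these counts describe H2-Ab1 and Cd74, not a set that moved as a whole.

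**Figure D3:**
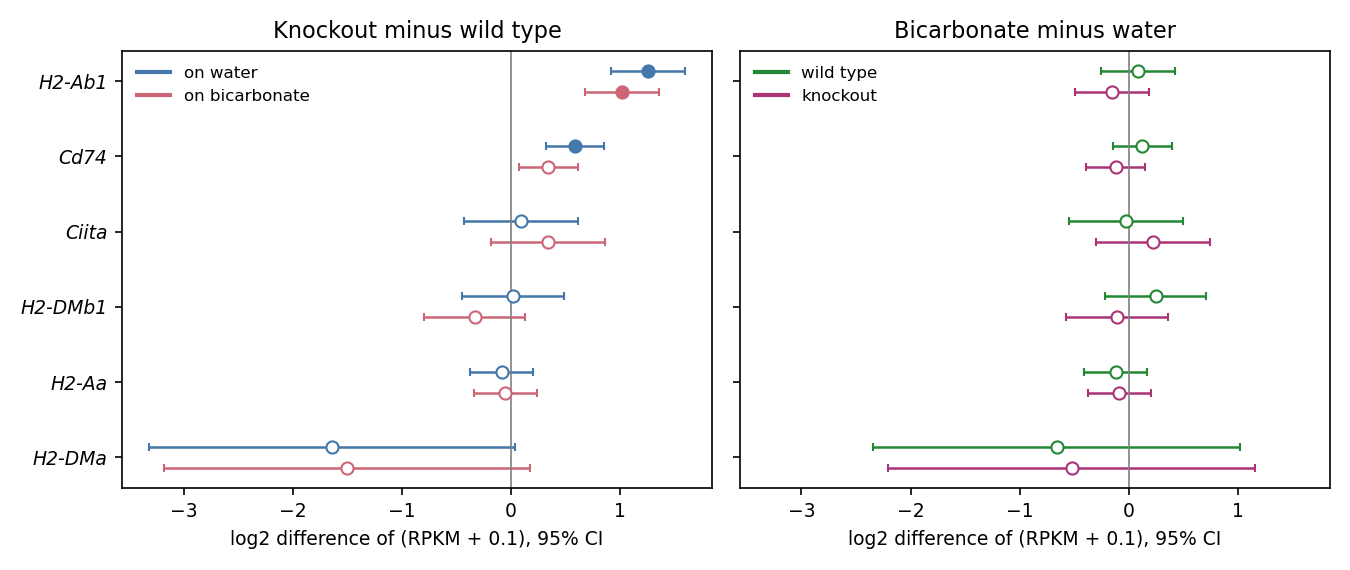
Log2 differences of (RPKM + 0.1) for the 6 class II genes, knockout minus wild type on each drink (left) and bicarbonate minus water in each genotype (right), with 95% intervals from the limma fit; filled points passed an adjusted p of 0.05 and open points did not. H2-Ab1 is filled on both drinks and Cd74 on water, and all 12 points on the right are open.

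No effect of bicarbonate on a class II gene could be told from the spread of the animals. In wild type the log2 difference, bicarbonate minus water, was 0.08 for H2-Ab1, 0.12 for Cd74, -0.12 for H2-Aa, 0.25 for H2-DMb1, -0.03 for Ciita and -0.66 for H2-DMa. In the knockout it was -0.16 for H2-Ab1, -0.12 for Cd74, -0.09 for H2-Aa, -0.11 for H2-DMb1, 0.22 for Ciita and -0.52 for H2-DMa. None of 6 passed in limma in wild type or in the knockout, and none had an unadjusted p under 0.05, beside 0.139% and 0.0232% of all genes called and 12% and 7.99% of all genes at an unadjusted p under 0.05. The 95% interval was -0.26 to 0.43 for H2-Ab1 in wild type and -0.50 to 0.18 in the knockout, and for Cd74 -0.14 to 0.39 and -0.39 to 0.15. A change of H2-Ab1 or Cd74 with bicarbonate as large as the genotype difference of H2-Ab1 lay outside these intervals. The intervals of H2-DMa, from -2.34 to 1.02 in wild type and from -2.20 to 1.16 in the knockout, allow changes of more than that size in the downward direction.

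The difference between the genotypes in the response to bicarbonate was also tested. It was -0.24 for H2-Ab1 on the log2 scale, with a 95% interval of -0.72 to 0.24, and 0.03 for H2-Aa, with an interval of -0.38 to 0.44. None of the 6 members passed in limma or had an unadjusted p under 0.05, beside 0.0155% of all genes called and 8.19% at an unadjusted p under 0.05. The genotype difference of H2-Ab1 was therefore measured in 2 sets of animals that share no library, with sizes that did not differ beyond their error.

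Animals within a group varied in class II RNA together, for some of the genes. After each library was expressed as its log2 deviation from its group mean, H2-Aa and Cd74 had a Pearson r of 0.908 over 16 libraries, with a permutation p of 0.00242, adjusted to 0.0363 over the 15 pairs of members, and a Spearman rho of 0.771, with a permutation p adjusted to 0.0144. Without the 2 libraries farthest in H2-Aa, wild type on water replicates 2 and 4, r was 0.718. H2-Aa and Ciita had r = 0.735 and rho = 0.794, with permutation p adjusted to 0.0378 and 0.0144, and r = 0.630 without the same 2 libraries. H2-Ab1 and Cd74 had r = 0.755 and rho = 0.788, with permutation p adjusted to 0.0378 and 0.0144, and r = 0.533 without wild type on water replicate 4 and knockout on water replicate 2. The other 12 pairs did not pass, among them H2-Aa with H2-Ab1, at r = 0.623 and rho = 0.550 with permutation p adjusted to 0.187 and 0.167, and at r = 0.193 without the 2 farthest libraries. Wild type on water replicate 4 was the lowest of its group for H2-Aa, H2-Ab1, H2-DMa, Cd74 and Ciita. Only 16 libraries with shared scaling enter each of these values.

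The genes most like the class II chains in this animal-to-animal variation were ranked by Pearson r with the mean deviation of H2-Aa, H2-Ab1, H2-DMa, H2-DMb1 and Cd74 over 16 libraries, among 12937 other genes. The 8 highest were Rnf31 at r = 0.901, Hist1h2bc at 0.878, Snrpc at 0.855, Nap1l3 at 0.835, Chrd at 0.821, Sap25 at 0.818, Taf11 at 0.816 and Dalrd3 at 0.814. That mean followed H2-DMa most, whose deviations had an SD of 1.08 beside 0.168 for Cd74. When each member's deviations were first divided by their SD, a choice made after seeing the data, the 8 highest were Gbp2 at 0.895, Rnf31 at 0.888, Cmpk2 at 0.887, Nap1l3 at 0.864, Irf9 at 0.850, Xbp1 at 0.847, Mapre3 at 0.841 and Prkar1b at 0.837. Only Rnf31 and Nap1l3 were in both lists of 8. Gbp2, Irf9 and Cmpk2 are known as interferon-induced genes. These rankings are the extremes of many genes over 16 libraries and are given as a description.

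Of 21 other genes of the class II pathway, 14 were tested. On water 1 rose in the knockout and none fell, and on bicarbonate 1 rose and 2 fell, beside the background shares given above. Rfx5, the subunit of the RFX complex that binds the X1 box, was at 4.70 ± 0.689 RPKM in wild type and 6.80 ± 0.430 RPKM in knockouts on water (SD, n = 4 each), a log2 difference of 0.53 with an adjusted p of 0.0087 in limma. Rfxank, another subunit of that complex, was at 1.95 ± 0.323 RPKM in wild type and 1.11 ± 0.335 RPKM in bicarbonate-fed knockouts (SD, n = 4 each), a log2 difference of -0.78 with an adjusted p of 0.00979 in limma. Each of these subunits passed on 1 drink, in opposite directions, and on the other drink the log2 difference was 0.21 for Rfx5 and -0.21 for Rfxank. March1, a ubiquitin ligase that removes class II molecules from the surface, was higher in the knockout on bicarbonate, with a log2 difference of 0.57, and Ctsl, a cathepsin that trims the invariant chain, was lower, with a log2 difference of -0.32. March1 lost its call in 5 and Ctsl in 4 of 8 fits that left out 1 library. The median log2 difference of the 14 genes was -0.14 on water and -0.03 on bicarbonate.

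Class I genes present peptides to CD8+ T cells and share part of their control with class II. Of 23 tested, 2 rose and 4 fell in the knockout on water, beside 10.1% and 11.8% of all genes. On bicarbonate 2 rose and 5 fell, beside 9.03% and 9.36%. B2m, the light chain of all classical class I molecules, was at 550 ± 50.4 RPKM in wild type and 856 ± 34.5 RPKM in knockouts on water (SD, n = 4 each), a log2 difference of 0.64 with an adjusted p of 0.000112 in limma, and of 0.48 on bicarbonate with an adjusted p of 0.00149. B2m is short, at 860 nt. Over the alternative settings its difference was as low as 0.35 on water and 0.31 on bicarbonate, and it passed in each. Psme1, a subunit of the proteasome activator, rose by 1.33 on water and 1.25 on bicarbonate on the log2 scale, from 39.8 ± 1.30 to 100.7 ± 9.41 RPKM on water (SD, n = 4 each). Tapbp, which holds class I molecules at the peptide transporter, was lower, with log2 differences of -1.63 on water and -1.49 on bicarbonate. The class I genes thus held members that moved each way, as did the genes tested as a whole.

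Genes of the signalling pathway of interferon gamma, the known inducer of Ciita, were read beside the class II genes. Of 20 tested, 2 rose and 4 fell in the knockout on water, beside 10.1% and 11.8% of all genes, and 1 rose and 2 fell on bicarbonate, beside 9.03% and 9.36%, with a median log2 difference of -0.27 and -0.01. The genes of both receptor chains were lower in the knockout on both drinks. Ifngr1 had a log2 difference of -0.78 on water and -0.99 on bicarbonate, and Ifngr2 of -0.68 and -0.999, with adjusted p of 0.0223, 0.00692, 0.0143 and 0.00144 in limma, in that order. Irf2, a factor that binds interferon response elements, rose by 0.40 on water and 0.54 on bicarbonate on the log2 scale.

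Of the genes beside the class II region on chromosome 17, 21 were tested. In the knockout on water 4 rose and 1 fell, beside 10.1% and 11.8% of all genes. On bicarbonate 2 rose and 1 fell, beside 9.03% and 9.36%. Brd2, which encodes a bromodomain protein that binds acetylated histones, rose by 0.58 and 0.43 on the log2 scale on the 2 drinks, with adjusted p of 0.000991 and 0.0104 in limma. Rnf5, a membrane-bound ubiquitin ligase, rose by 0.32 and 0.30. Rps18, a protein of the small ribosomal subunit, rose by 0.35 on water. With a trend on length and GC content removed, the water difference was 0.15 for Rnf5 and 0.18 for Rps18, with adjusted p of 0.166 and 0.103 in limma, so neither passed there. Wdr46 had a log2 difference of -0.46 on bicarbonate, a call lost in 6 of 8 fits that left out 1 library. The median of these 21 genes was 0.02 on water and 0.07 on bicarbonate, so H2-Ab1 differed more than the middle gene around it, and no test of that contrast was made.

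Markers of cells that carry class II molecules were read beside these results. Of the macrophage and monocyte markers 14 were tested, and none passed on either drink in limma. At an unadjusted p under 0.05 in limma were 2 on water and 4 on bicarbonate. Of all 12943 genes, 4436 and 4069 were under that value on the same drinks. The summed RPKM of the 15 of 16 listed markers in the table was 74.7 to 93.2 in wild type on water, 79.5 to 89.4 in wild type on bicarbonate, 75.3 to 81.0 in the knockout on water and 72.2 to 84.0 in the knockout on bicarbonate. These ranges overlapped between the genotypes on each drink. Single markers moved each way, since on bicarbonate 2 were higher and 2 lower in the knockout without overlap, beside 11% and 11.8% of all genes. None of 3 dendritic cell markers, 2 B cell markers and 1 T and NK cell marker passed in limma on either drink. On bicarbonate the 3 dendritic cell markers were all higher in the knockout, at a median log2 difference of 0.42. On water 2 were higher and 1 lower, at a median of 0.00093. Clec9a, 1 of the 3, was higher on bicarbonate without overlap, beside 11% of all genes. Its log2 difference there was 0.56, with an adjusted p of 0.0603 in limma, and it was -0.18 on water. The 5 dendritic cell markers in the table, of 10 listed, summed to 5.01 to 6.52, 4.18 to 5.32, 4.97 to 6.46 and 5.33 to 6.29 RPKM in the same order of groups, and Flt3 and Xcr1 were under 0.5 RPKM in every library. The 2 B cell markers in the table summed to 3.52 to 10.4, 1.52 to 9.53, 4.10 to 7.73 and 3.54 to 11.9 RPKM. The 2 T and NK cell markers summed to 0.343 to 1.02, 0.510 to 1.205, 0.921 to 1.15 and 0.497 to 0.885 RPKM. The 1 neutrophil marker in the table, Csf3r, was under 0.5 RPKM in every library.

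Markers of leukocytes in general moved each way between the genotypes. Of 9 tested, Cd52 and Fcer1g rose on water, beside 10.1% of all genes, and Fcer1g rose on bicarbonate, beside 9.03%. Of the 9 log2 differences, 4 were positive and 5 negative on water, with a median of -0.06. On bicarbonate 5 were positive and 4 negative, with a median of 0.007. Cd52, a small surface glycoprotein of lymphocytes and myeloid cells, was at 3.74 ± 0.519 RPKM in wild type and 9.07 ± 1.54 RPKM in knockouts on water (SD, n = 4 each), a log2 difference of 1.25. Fcer1g, the signalling chain shared by Fc receptors, rose by 0.50 on water and 0.38 on bicarbonate. Both are short transcripts, at 514 and 683 nt, and neither passed after a trend on length and GC content was removed. The summed level of the 9 markers was 39.5 to 48.4, 39.7 to 47.2, 43.0 to 50.9 and 40.6 to 53.4 RPKM in the same order of groups, and it overlapped between genotypes. The part of these cells in the class II levels was not tested.

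Markers of other kidney cells were read in the same way. Of all genes, 10.1% were called higher and 11.8% lower on water, and 9.03% and 9.36% on bicarbonate. None of 10 endothelial markers passed, and their sum of 327 to 357, 311 to 371, 316 to 350 and 333 to 371 RPKM overlapped between the groups. Of 7 tubule injury markers Lcn2 rose on water by 1.27 on the log2 scale, a call lost in 3 of 8 fits that left out 1 library, and Clu fell on both drinks, with log2 differences of -0.65 and -0.39. Of 12 markers of tubules and podocytes none rose and 3 fell on each drink, among them Slc5a2, the glucose transporter of the early proximal tubule, at -0.44 and -0.52. Their sum was 3196 to 3782, 3087 to 3594, 2718 to 2894 and 2719 to 3133 RPKM in the same order of groups. It was lower in the knockout without overlap on water, where H2-Ab1 and Cd74 were higher. On bicarbonate, where H2-Ab1 was also higher, the sums of the genotypes overlapped. Slc34a1 and Umod weigh most in the sum, with means of 1102 and 861 RPKM in wild type on water. The part of these levels in the class II result was not tested.

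**Figure D4:**
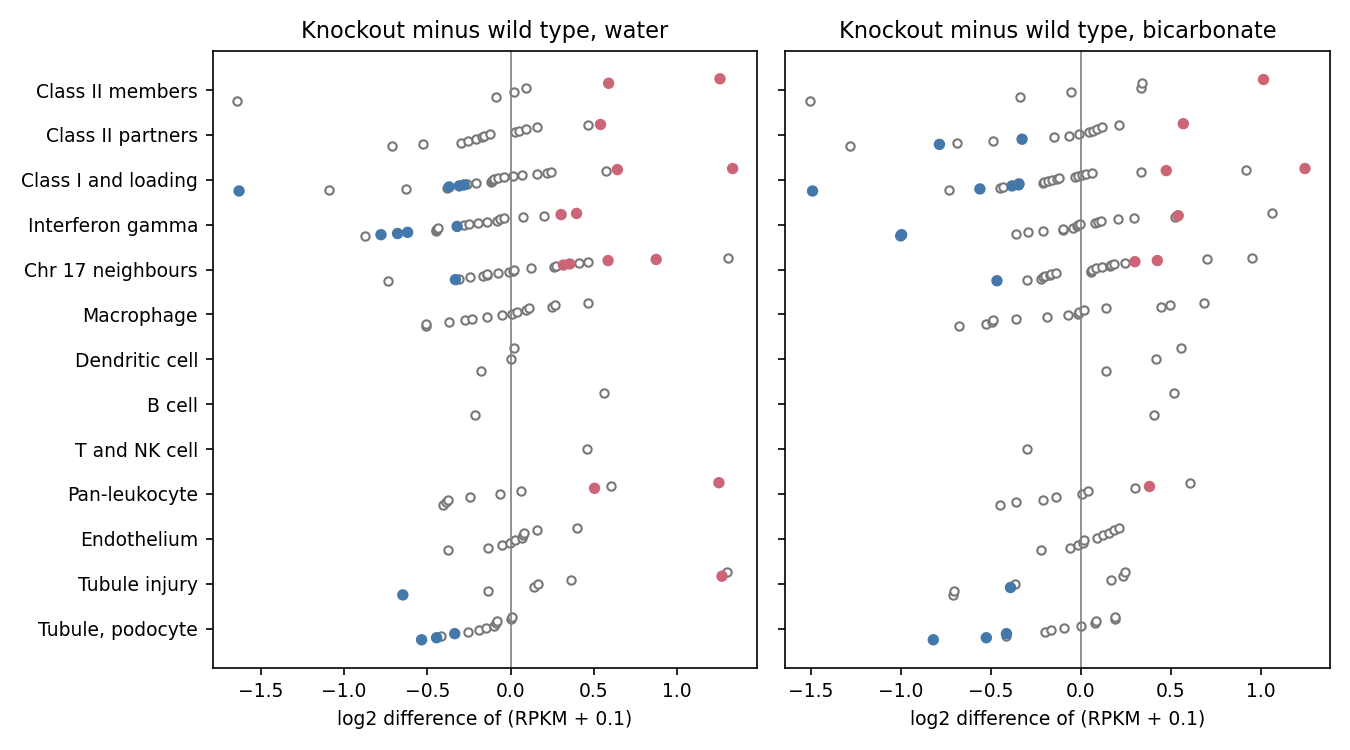
Log2 differences of (RPKM + 0.1), knockout minus wild type, for each tested gene of the class II set and of 12 other lists, on water (left) and on bicarbonate (right), with 1 point per gene; filled points passed an adjusted p of 0.05 in limma, higher in red and lower in blue, and the height within a list only separates the points. Macrophage, dendritic cell, B cell, T and NK cell and endothelial markers hold no filled point, and the class I list holds filled points on both sides.

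Transcript length moved with the genotype difference over the whole table. On water the median log2 difference was 0.34 for genes with a longest transcript over 500 and up to 1000 nt, of which 42.7% were called higher, and -0.01 for genes over 1000 and up to 2000 nt, of which 13.6% were called higher. H2-Ab1, at 1212 nt, and Cd74, at 1410 nt, fall in the second of these ranges, as does H2-DMb1 at 1404 nt, whose log2 difference was 0.02. H2-Aa has a longest transcript of 3223 nt. With a trend on length and GC content removed from each library, the log2 difference on water was 1.07 for H2-Ab1 and 0.47 for Cd74, with adjusted p of 0.000449 and 0.0203 in limma, and 0.00433 for H2-Aa. The bicarbonate value was 0.96 for H2-Ab1, with an adjusted p of 0.00121 in limma. The separation of H2-Ab1 from H2-Aa was thus present with and without this trend.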

How the data were processed

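The authors deposited 1 table of RPKM values, with 1 column per library. Per the submitters' processing notes Salmon 1.5.2 and edgeR 3.34.0 were used and the builds GRCm39 and mm10 are named, without the step of each, so which annotation was counted is not known here. Symbols, positions and lengths came from GENCODE M21 (GRCm38), which matched all 13430 genes. Promoter windows came from RefSeq.

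Genes at 0.5 RPKM or more in at least 4 libraries were kept, 12943 in all, with 487 set aside. Values were tested as log2(RPKM + 0.1) with limma 3.58.1 in R 4.3.3, using trended and robust variances in a single model of the groups (12 residual degrees of freedom). Adjusted p-values are Benjamini-Hochberg values over all genes tested, two-sided, with a threshold of 0.05. The scale understates changes of low genes. Correlations were permuted 100000 times within groups (NumPy). No 2 libraries held identical values. The labels call the libraries separate animals.

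The procedure was first tested on made-up data with known changes. Of 2-fold changes it recovered 74% to 76% in the genotype and drink comparisons and 48% in the interaction. Of 1.5-fold changes it recovered 49% to 58% and 16%, so a change of that size could be missed. False calls numbered 3 to 11 among 12943 genes. The members and the 14 lists were chosen with earlier results of these data known. Values are given for all members, for up to 3 called genes per pathway list and up to 2 per cell type list and comparison with the smallest p, and for the 8 genes most like the class II chains; 1 gene within these rules is not reported here. Other genes named beside these were chosen after their values were seen. The alternatives were other pseudocounts, no filter, only the groups compared, other scalings and variance models, a length and GC trend removed, the replicate number as a block, and each library left out.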

Additional observations from a re-analysis of the deposited data

Results flagged for a closer look

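In 112 groups of 4 libraries, from 28 genes, 8 groups held 1 library whose gap to its nearest neighbour was above Dixon's 95% critical value for 4 libraries, and chance gives about 1 group in 20. Among the class II genes, H2-Aa was at 47.0 RPKM in knockout on bicarbonate replicate 4, beside 41.6 to 42.4 RPKM in replicates 1 to 3. H2-DMa was at 2.94 RPKM in knockout on water replicate 3, beside 0.201 to 0.586 RPKM.

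Wild type on bicarbonate replicate 3 stood apart for 2 genes, with Ctsl at 217 RPKM beside 165 to 170 RPKM and Lcn2 at 18.1 RPKM beside 4.07 to 6.38 RPKM. B2m was at 804 RPKM in knockout on water replicate 2, beside 869 to 878 RPKM, a value still above all wild-type libraries. Tapbp was at 16.4 RPKM in wild type on water replicate 2, beside 10.5 to 11.5 RPKM. Irf2 was at 13.99 RPKM in knockout on water replicate 3, beside 12.8 to 12.9 RPKM, and Ifngr2 at 7.98 RPKM in knockout on bicarbonate replicate 1, beside 5.42 to 5.61 RPKM.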

How the results depend on the processing

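H2-Ab1 stayed higher in the knockout and past the threshold in all alternatives, at 1.07 to 1.29 on water and 0.96 to 1.07 on bicarbonate on the log2 scale, and at 1.10 to 1.38 and 0.94 to 1.11 with 1 library left out. Cd74 stayed past it on water, at 0.47 to 0.62, and at 0.44 to 0.68 with 1 library left out. The number of members called was 2 on water in each alternative and 2 to 3 with 1 library left out. On bicarbonate it was 2 with only the groups compared, which adds Cd74, and 1 otherwise, and for bicarbonate and the interaction it was 0 throughout. With the length and GC trend removed, uncalled values changed sign for H2-Aa between genotypes (0.00433 on water, 0.0093 on bicarbonate), H2-DMb1 on water (-0.099) and H2-Ab1 with bicarbonate in wild type (-0.016). The interaction changed sign for H2-Aa with array weights (-0.011) and for H2-DMa with quantile normalization (-0.0075), and the cause of these sign changes was not tested. Leaving out 1 library gave, on water between genotypes, -0.26 to 0.0024 for H2-Aa, -0.19 to 0.20 for H2-DMb1, -0.097 to 0.22 for Ciita and -2.35 to -1.23 for H2-DMa, and on bicarbonate -0.11 to 0.014 for H2-Aa. For bicarbonate in wild type it gave -0.068 to 0.18 for H2-Ab1, -0.024 to 0.22 for Cd74 and -0.21 to 0.11 for Ciita, and in the knockout -0.93 to 0.18 for H2-DMa and -0.29 to 0.10 for H2-DMb1. For the interaction it gave -0.057 to 0.21 for H2-Aa and -0.27 to 0.84 for H2-DMa. Of the other named genes, Rnf5, Rps18, Cd52 and Fcer1g lost the water call with the trend removed, and Fcer1g, Ctsl, March1 and Wdr46 lost the bicarbonate call in some fits. The count of all genes called for bicarbonate in wild type was 18, with 5 for only the groups compared, 34 with quantile normalization, 5 with the trend removed, 2 with the replicate block and 2 to 82 with 1 library left out, 82 without wild type on bicarbonate replicate 4. The interaction called 2, and 0 to 5 under the alternatives. Libraries of the same replicate number deviated together little (r of -0.049 to 0.105), and whether the numbers mark a litter, date or batch was not tested. Between genotypes the same number gave the closest match for 2 of 4 libraries on water and 3 of 4 on bicarbonate. Between drinks it did so for 1 of 4 in wild type and 0 of 4 in the knockout. With the replicate block H2-Ab1 was at 1.26 on water, and the block changed no call of a member. Read depth is unknown, which limits H2-DMa and Ciita most.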
